A study of Ficus obtusifolia with 4 samples.

Results

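The data described here are the fig transcripts of gall flowers of Ficus obtusifolia, a strangler fig, before and after the entry of a pollinating wasp. Fig transcripts were taken as those with at least 10 mapped reads in each of the 2 receptive libraries, which were made before any wasp was introduced, and with an RPKM (reads scaled to the length of the transcript and to the mapped total of the library) above 20 in receptive gall flowers, in pollinated gall flowers or in both. This left 8738 of 54550 assembled transcripts (16.0%). Of these, 7148 carried a protein description from a database search and 1590 carried none. The descriptions are matches to proteins of other species, so the function given for a transcript is that of its match. Transcripts are named by the locus number of the assembly. The read minimum does not by itself leave out RNA of other organisms present before wasp entry. The study reported fungi and bacteria in these syconia, and their part among the members was not tested.

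A fig, or syconium, is a closed inflorescence lined with many small flowers. A female wasp, the foundress, crawls in through a narrow opening, brings pollen and lays eggs into the ovaries of part of the flowers. An ovary that holds an egg grows into a gall that feeds 1 larva, whereas a pollinated ovary without an egg forms a seed. The first day after entry therefore covers the response of the flower to pollen, to the egg and to the fluids injected with it.

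RNA was sequenced from 4 flower types of 1 recipient tree, with 1 library for each type. The types were gall and seed flowers at the receptive stage, and gall and seed flowers at the pollinated stage. Syconia were bagged to keep wasps out, and when they were receptive 1 female of Pegoscapus hoffmeyerii from another tree was put into each. Receptive flowers were taken before the introduction and pollinated flowers 24 hours after it. Each library held a pool of many flowers of 1 position, with 2 to 3 additional syconia contributing to it. Gall flowers were recognised only by lying nearest to the cavity of the fig, and not by an observed egg, so the pollinated gall pool may hold flowers without an egg or without pollen. All flowers came from a wild tree of unmanipulated genotype. Pollen, egg, injected fluid and 1 day of ageing all separate the receptive from the pollinated flowers and cannot be told apart. With 1 library per flower type the comparisons are between libraries, with no replicate check and no p-value. Intervals are exact 95% intervals on the ratio of the read counts. They cover counting error only, and the reads carried no molecular identifiers. In such bulk samples, fewer cells of a type and less RNA per cell cannot be told apart.

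The receptive gall library held 51063005 mapped reads and the pollinated gall library 58969477. The seed libraries were shallower, with 11584069 and 22141107 reads. The share of reads on transcripts below the minimum of 10 was 0.739% for receptive gall flowers and 3.21% for pollinated gall flowers, beside 0.374% and 0.673% for the seed flowers of each stage. Of 501 transcripts described with wasp or other insect names or with words for insect proteins, none was a member. They held 24 reads in receptive gall, 61910 in pollinated gall, 2 in receptive seed and 28 in pollinated seed flowers. With 2 reads in receptive seed flowers none could pass the read minimum, so this is no check of the members for wasp RNA. Of 20 transcripts described as carpel or ovule genes, 19 had reads in the receptive gall and 20 in the pollinated gall library. Of the 7 among the members, none differed 2-fold. Transcripts described as anther or pollen genes had a summed level of 1270 RPKM in receptive gall and 1328 in pollinated gall flowers, and of their 13 members none was higher and 2 were lower. Their part in the results below was not tested.

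Most fig transcripts had similar levels before and 24 hours after foundress entry. A transcript was called higher or lower when its RPKM ratio, pollinated to receptive, was at least 2 or at most 0.5. By this rule 526 of 8738 were higher in pollinated gall flowers (6.02%), 503 were lower (5.76%) and 7709 were neither (88.2%). These shares over all members are the background for each group count below. The median log2 ratio was 0.02, and the middle 50% of the transcripts lay between -0.33 and 0.37. At least 4-fold differences numbered 134 higher and 87 lower, and at least 10-fold differences 38 higher and 13 lower. A member had a median of 3342 reads in the receptive gall and 3873.5 in the pollinated gall library, and the counting interval of every called transcript lay wholly above or wholly below 1. Of the transcripts that were higher, 37.1% had no description, as against 20.1% of those that were lower. The RPKM minimum shaped these counts. Of the 526 higher, 290 passed it in pollinated gall flowers alone, and of the 503 lower, 246 passed it in receptive gall flowers alone. These transcripts could only be called in the direction in which they were found. The group counts below, like the background shares, include such transcripts, and only some of them are marked.

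**Figure D1:**
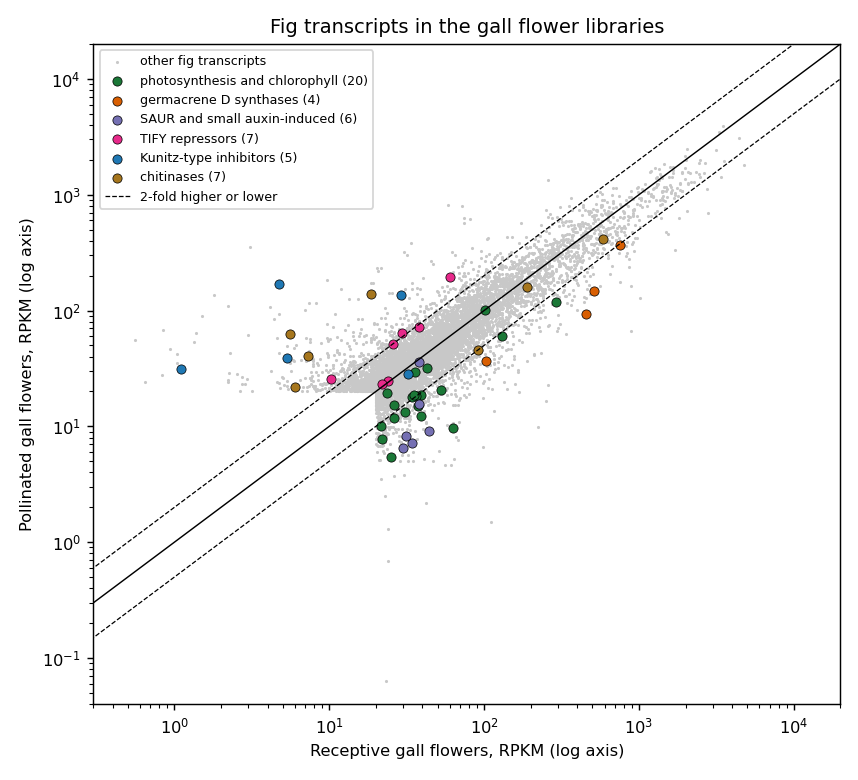
RPKM of 8738 fig transcripts in the receptive gall library (x axis, log scale) and the pollinated gall library (y axis, log scale). Each point is a transcript, coloured points are 6 groups with their number of transcripts in brackets, the solid line marks equal levels and the dashed lines a 2-fold difference. The 20 photosynthesis transcripts all lie below the line of equal levels. Of the 5 transcripts listed as Kunitz-type inhibitors, 4 lie above the upper dashed line, and the other is an inter-alpha-trypsin inhibitor by description.

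Among the described transcripts with the largest rise were proteins of the cell wall, of defence and of auxin release. Locus_30225, described as an IAA-amino acid hydrolase, which frees the hormone auxin from its storage conjugates, had 0.559 RPKM in receptive gall, 55.3 in pollinated gall, 0.629 in receptive seed and 16.2 in pollinated seed flowers. It was 99-fold higher in pollinated than in receptive gall flowers (95% interval 74.3 to 135). Both receptive libraries were below 1 RPKM, and both pollinated libraries were far above them. Locus_187, which has no description and showed the largest ratio of all members, had 3.08 RPKM in receptive gall, 353 in pollinated gall, 12.6 in receptive seed and 61.7 in pollinated seed flowers, a rise of 115-fold in gall flowers (93.3 to 142). The pollinated gall library stood above the other 3 libraries for this transcript.

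A germin-like protein, a class of wall glycoproteins that take part in defence, was 59.6-fold higher (47.9 to 75.2), with Locus_4560 at 1.5 RPKM in receptive gall, 89.4 in pollinated gall, 3.59 in receptive seed and 31.4 in pollinated seed flowers. A pectinesterase, an enzyme that strips methyl groups from wall pectin, was 46.1-fold higher (39.5 to 54.2), with Locus_1633 at 1.38 in receptive gall, 63.5 in pollinated gall, 0.674 in receptive seed and 17.2 in pollinated seed flowers. Both were below 4 RPKM in each receptive library and above 17 in each pollinated library. Locus_32872, described as lectin KM+, a mannose-binding protein first known from jackfruit seeds, was at 1.34 RPKM in receptive gall, 53.5 in pollinated gall, 1.06 in receptive seed and 29.3 in pollinated seed flowers, a ratio of 39.9 (31.4 to 51.7). Further transcripts with ratios above 20 were described as calmodulin-binding (Locus_40475, 1.81 to 137 RPKM in gall flowers, and Locus_521, 2.23 to 109), as peroxidase 55 (Locus_11131, 1.03 to 35.4), as a cytochrome P450 (Locus_21716, 0.835 to 28) and as glucomannan 4-beta-mannosyltransferase, which builds the mannan backbone of the wall (Locus_3930, 2.99 to 62.1). Each of these was also at least 4-fold higher in pollinated than in receptive seed flowers.

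A beta-tubulin transcript was the exception among the described transcripts with the largest rise. Locus_5303, described as the beta-1 chain of tubulin, the subunit of microtubules, had 0.648 RPKM in receptive gall, 24.3 in pollinated gall, 0.513 in receptive seed and 0.498 in pollinated seed flowers. It was 37.5-fold higher in pollinated gall flowers (31.2 to 45.4) and differed by a ratio of 0.972 in seed flowers. It held 117 reads in the receptive gall, 5062 in the pollinated gall, 21 in the receptive seed and 39 in the pollinated seed library. The transcripts with insect names, given above, held most of their reads in the same library. Beta-tubulin is among the most alike proteins between plants and animals, its description names no species, and its origin was not tested.

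**Figure D2:**
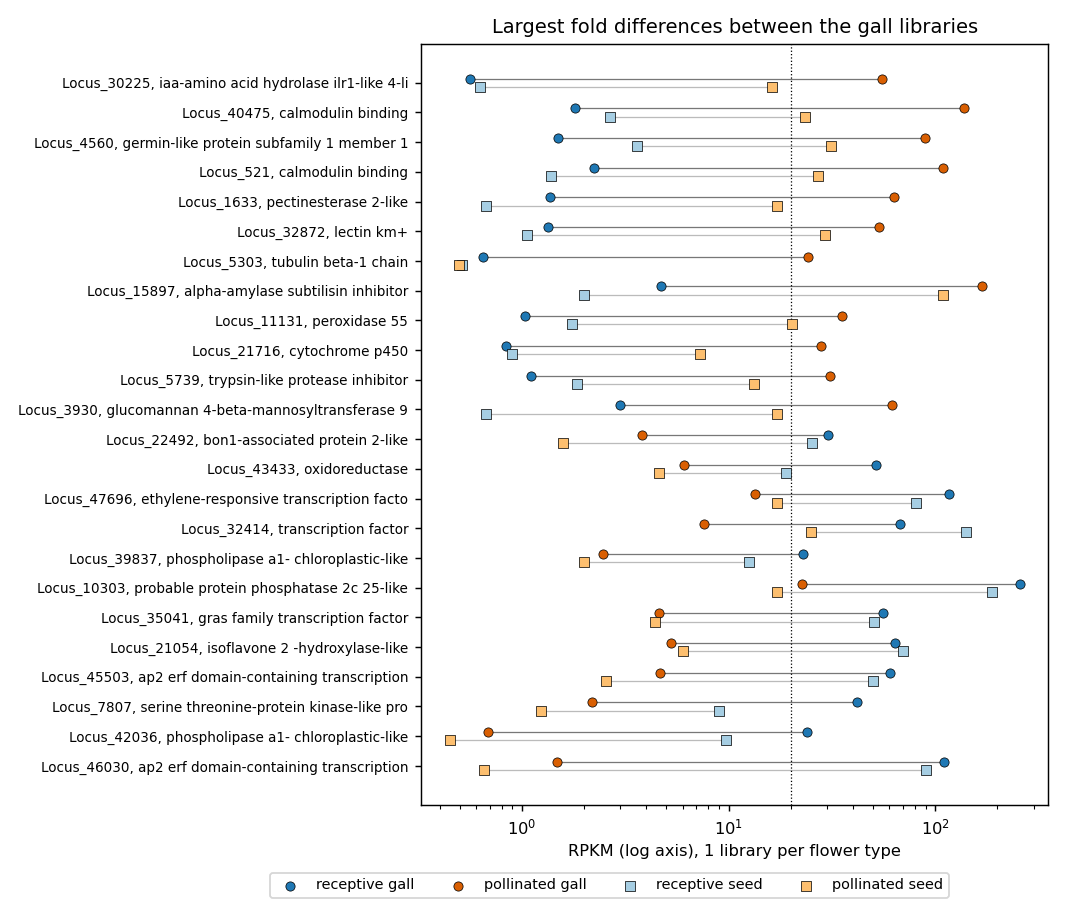
RPKM (x axis, log scale) of the 12 described transcripts with the largest rise and the 12 with the largest fall in gall flowers (y axis), with circles for the gall libraries, squares for the seed libraries and a dotted line at 20 RPKM. Of the 24, only the beta-tubulin transcript Locus_5303 keeps its level in seed flowers, at 0.513 and 0.498 RPKM.

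The largest falls included transcripts described as AP2/ERF transcription factors. Locus_46030, an AP2/ERF factor from a family of plant transcription factors that includes the mediators of ethylene and cold responses, had 111 RPKM in receptive gall, 1.48 in pollinated gall, 90.6 in receptive seed and 0.656 in pollinated seed flowers. It was 74.8-fold lower in pollinated gall flowers (62.8 to 89.97). Locus_52935, described as CRT binding factor 3, a cold-response activator of the same family in Arabidopsis, fell from 23.2 to 0.063 RPKM in gall flowers and from 14.5 to 0.084 in seed flowers. Only 4 reads were left in the pollinated gall library, so its fall of 366-fold carries an interval of 143 to 1347. For both transcripts the receptive libraries were high and the pollinated libraries near 0.

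A pair of phospholipase A1 transcripts, whose enzymes cut fatty acids from membrane lipids, were 34.6-fold (Locus_42036, 23.8 to 0.689 RPKM) and 9.19-fold lower (Locus_39837, 22.8 to 2.48). Locus_7807, described as a CCR3-like kinase, was 19.2-fold lower, and a protein phosphatase 2C (Locus_10303) fell from 257 to 22.7 RPKM, or 11.3-fold. A GRAS family factor (Locus_35041) was 12.2-fold lower, an unnamed transcription factor (Locus_32414) 8.82-fold and a homologue of BON1-associated protein 2, which restrains cell death in Arabidopsis (Locus_22492), 7.97-fold. All of these also fell at least 4-fold in seed flowers. Among abundant transcripts, the galactose-binding lectin Locus_32001 had 1022 RPKM in receptive gall, 128 in pollinated gall, 565 in receptive seed and 99.4 in pollinated seed flowers, a fall of 7.96-fold in gall flowers (7.71 to 8.22).

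Auxin genes moved in both directions. Of 59 auxin transcripts, 6 were higher and 11 lower, with a median log2 ratio of -0.09. Of the 6 IAA-amino acid hydrolases 3 were higher and none lower, with a median of 0.96. Besides Locus_30225, the transcript Locus_2238 rose from 12.6 to 67.7 RPKM and Locus_1261 from 58.5 to 144. Locus_30225 and Locus_2238 passed the RPKM minimum in pollinated gall flowers alone, so they could only be called higher. The SAUR and related small auxin-induced proteins, early-response proteins that promote cell expansion, had 5 of 6 lower, none higher and a median of -2.06. Locus_44490 had 43.9 RPKM in receptive gall, 9.07 in pollinated gall, 121 in receptive seed and 19.5 in pollinated seed flowers and Locus_13941 had 34.2 in receptive gall, 7.25 in pollinated gall, 113 in receptive seed and 30.1 in pollinated seed flowers. In both the pollinated libraries lay below the receptive libraries of the same position. Both passed the RPKM minimum in receptive gall flowers alone, so in gall flowers they could only be called lower. The SAUR list was drawn up after its values were seen. An Aux/IAA-type transcript (Locus_6854, indole-3-acetic acid inducible 4), from the repressors of the auxin response, was 4.99-fold lower, from 209 to 41.8 RPKM. The auxin-repressed protein Locus_11254, which is named for its loss under auxin, was 3.02-fold lower, from 370.3 to 123.

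Jasmonate genes were more often above than below their receptive level, at 15 and 6 transcripts, which came in part from the TIFY transcripts described below. Jasmonate is the hormone of wounding and chewing damage, made from fatty acids by lipoxygenase, allene oxide synthase and allene oxide cyclase, and the TIFY (JAZ) proteins repress its target genes. Of 21 transcripts, 6 were higher, 3 of which were TIFY transcripts, and 3 lower, with a median log2 ratio of 0.41. All 7 TIFY transcripts had ratios above 1, 3 of them at least 2-fold, and their median was 0.98 beside 0.02 over all members. Locus_436, described as TIFY 10a, had 59.98 RPKM in receptive gall, 196 in pollinated gall, 91.6 in receptive seed and 137 in pollinated seed flowers, a rise of 3.27-fold in gall flowers (3.19 to 3.36). Pollinated gall flowers had the highest of its 4 levels. In seed flowers the TIFY median was 0.02, with 1 of 7 at least 2-fold higher. The TIFY list, like those of the hydrolases, SAUR proteins, Kunitz-type inhibitors, chitinases, lectins, CC-NBS-LRR receptors, germacrene D synthases, acyl-CoA synthetases and S-adenosylmethionine synthetases, was drawn up after its values were seen.

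A lipoxygenase fragment of 319 bp (Locus_20932) was among the most abundant transcripts that rose, with 259 RPKM in receptive gall, 1346 in pollinated gall, 422 in receptive seed and 718 in pollinated seed flowers (5.2-fold in gall flowers). Allene oxide cyclase (Locus_797, chosen after its values were seen) rose from 55.1 to 125 RPKM in gall flowers and stood at 76.3 and 97.1 in seed flowers. A longer lipoxygenase transcript (Locus_2519, 1377 bp) had 146 RPKM in receptive gall, 107 in pollinated gall, 2.13 in receptive seed and 84.3 in pollinated seed flowers. Other transcripts of the same pathway fell. Allene oxide synthase (Locus_2922) was 3.17-fold lower (65.1 to 20.5 RPKM), a 13S-lipoxygenase (Locus_4506) 2.06-fold lower (159 to 77.1), and jasmonate O-methyltransferase (Locus_44024), which makes the volatile methyl ester, 5.84-fold lower (62.5 to 10.7).

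Ethylene and AP2/ERF genes were more often lower, with 9 of 33 lower and 2 higher and a median of -0.22. These shares were 27.3% and 6.06%, against 5.76% and 6.02% of all members. By description, 8 of the 9 that fell were AP2/ERF or ethylene response factors and 1 was an ethylene-regulated transcript. Besides those named above, ERF5-like Locus_47696 had 116 RPKM in receptive gall, 13.5 in pollinated gall, 80.3 in receptive seed and 17.2 in pollinated seed flowers, and ethylene response factor 3 (Locus_18586) had 299.6 in receptive gall, 71.1 in pollinated gall, 93.7 in receptive seed and 71.3 in pollinated seed flowers. For the former both pollinated libraries lay below both receptive ones, while for the latter receptive gall flowers stood above the other 3 libraries. Locus_47696 passed the RPKM minimum in receptive gall flowers alone, so it could only be called lower in gall flowers. The enzyme of the last step of ethylene synthesis, ACC oxidase (Locus_25168), rose 3.2-fold, from 39.6 to 127 RPKM. S-adenosylmethionine synthetases, whose product is the precursor of ethylene and the methyl donor of the cell, had 3 of 10 lower and 0 higher and a median of -0.91, although 6 of the 10 were fragments shorter than 200 bp. Of 10 gibberellin transcripts 1 was higher (gibberellin 20-oxidase, Locus_3219, 7.58 to 26.3 RPKM) and 1 lower (a gibberellin-regulated protein, Locus_9621, 134 to 33.9). Of 13 abscisic acid and salicylate transcripts 2 were higher and 2 lower. A late embryogenesis abundant protein (Locus_37719) fell 4.48-fold and a dehydrin (Locus_2112) rose 5.91-fold. Both belong to families that protect drying cells.

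Several inhibitors and chitinases rose after foundress entry. Of 50 pathogenesis-related proteins and inhibitors, 13 were higher and 7 lower (26% and 14%, against 6.02% and 5.76% of all members), while their median log2 ratio was -0.26. Among them, 4 of 5 Kunitz-type inhibitors, small proteins that block the proteases and amylases of insects and microbes, were higher. Locus_15897 had 4.7 RPKM in receptive gall, 169 in pollinated gall, 1.99 in receptive seed and 109 in pollinated seed flowers, a ratio of 35.9 in gall flowers (31.9 to 40.4). Locus_4547 rose from 29.1 to 136 RPKM, Locus_6254 from 5.37 to 38.7 and Locus_5739 from 1.11 to 31. Locus_15897, Locus_6254 and Locus_5739 passed the RPKM minimum in pollinated gall flowers alone, so they could only be called higher. The exception, Locus_5168 (32.4 and 28.5 RPKM), is described as an inter-alpha-trypsin inhibitor heavy chain, which is not of the Kunitz fold.

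Chitinases, which cut the chitin of fungal walls and of insects, had 4 of 7 higher and 1 lower. Locus_1182, a class IV chitinase, had 18.5 RPKM in receptive gall, 139 in pollinated gall, 1.46 in receptive seed and 15.4 in pollinated seed flowers, and Locus_230, of the same class, rose 11.1-fold to 62.5 RPKM. Class I chitinase Locus_8146 rose from 7.3 to 40.3. The most abundant member, class I chitinase Locus_20250, went from 588 to 418 RPKM, and a chitinase-like protein (Locus_6953) fell 2.01-fold. The 4 that rose started at 18.5 RPKM or less and the other 3 at 91.3 or more. The 4 thus passed the RPKM minimum in pollinated gall flowers alone and could only be called higher. The median of the 7 was 1.86 on the log2 scale, and -0.26 over the 5 that passed 50 RPKM in a gall library. Of the intracellular PR-10 and latex-type proteins, Locus_26033 (PR10) was 3.13-fold lower, with 47.7 in receptive gall, 15.3 in pollinated gall, 13.3 in receptive seed and 43 in pollinated seed flowers, and Locus_12508 (MLP-like protein 28) 5.66-fold lower. PR10 moved the other way in seed flowers.

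Peroxidases and other enzymes of reactive oxygen, which cross-link walls and make or remove peroxide, had 9 of 49 higher and 5 lower (18.4% and 10.2%) and a median of 0.07. Locus_2214, a peroxidase, had 81.5 RPKM in receptive gall, 614 in pollinated gall, 42.4 in receptive seed and 332 in pollinated seed flowers, a rise of 7.54-fold in gall flowers. An L-ascorbate oxidase homologue (Locus_524) rose from 4.41 to 84.4 RPKM. It passed the RPKM minimum in pollinated gall flowers alone, so it could only be called higher. The most abundant of those that fell, a secretory peroxidase fragment of 231 bp (Locus_24264), had 2042 in receptive gall, 724 in pollinated gall, 188 in receptive seed and 773 in pollinated seed flowers. Its receptive gall level exceeded the other 3 libraries.

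Immune receptor transcripts were mostly below their receptive level, though few by 2-fold. NBS-LRR proteins are intracellular sensors of pathogen proteins, and of 69 such transcripts 50 had ratios below 1, 6 were lower and 1 was higher, with a median of -0.35. The CC-NBS-LRR type had 5 of 17 lower, none higher, 14 of 17 below a ratio of 1 and a median of -0.67. Locus_14949 had 23.4 RPKM in receptive gall, 8.15 in pollinated gall, 2.32 in receptive seed and 14.1 in pollinated seed flowers, a fall of 2.87-fold in gall flowers. In seed flowers the same 17 transcripts had 9 higher, none lower and a median of 1.18. The list was drawn up after its values were seen. The RPKM minimum was set on the gall libraries and not on the seed libraries. Locus_14949 passed it in receptive gall flowers alone, so in gall flowers it could only be called lower. The higher NBS-LRR transcript, Locus_16665, went from 80.8 to 187 RPKM. Of 6 lectins 1 was higher and 3 were lower, and the mannose-binding KM+ type held both the 39.9-fold rise of Locus_32872 and a fall of 5.39-fold in Locus_23805 (167 to 30.9 RPKM).

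Wall genes moved in both directions, and no difference between their types was tested. Expansins, which loosen the wall during growth, had 4 of 12 higher (33.3%, against 6.02% of all members) and none lower. Their ratios were above 1 in 7 and below in 5, with a median of 0.21. Locus_3414, alpha-expansin 11, had 25.2 RPKM in receptive gall, 141 in pollinated gall, 18 in receptive seed and 68.7 in pollinated seed flowers, a rise of 5.57-fold in gall flowers, and alpha-expansin 1 Locus_755 rose from 51.5 to 136 RPKM. The most abundant, alpha-expansin 1 Locus_6850, had 344 and 232. Genes of xyloglucan, cellulose and wall glycoproteins had 6 of 36 lower (16.7%, against 5.76% of all members) and none higher, and a median of -0.29. Of these, the extensin-like Locus_10755, a wall glycoprotein, had 262 RPKM in receptive gall, 75.1 in pollinated gall, 2.94 in receptive seed and 2.59 in pollinated seed flowers. Its seed levels were below 3 RPKM at both stages, and the gall level fell 3.49-fold. A second extensin-like transcript, Locus_1527, fell 3.48-fold from 486 RPKM and may be a piece of the same gene. Pectin-modifying enzymes had 5 of 35 higher and 6 lower and a median of -0.21. Polygalacturonases, which cut pectin, rose in Locus_11102 (2.86 to 23.3 RPKM) and Locus_791 (5.36 to 24.8), and pectin methylesterase Locus_171 fell, with 653 in receptive gall, 207 in pollinated gall, 18.6 in receptive seed and 142 in pollinated seed flowers.

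The photosynthesis and chlorophyll group had the largest share of lower transcripts among groups of 20 or more. All 20 had ratios below 1, 12 were at least 2-fold lower (60%, against 5.76% of all members), and the median log2 ratio was -1.12. Protochlorophyllide reductase (Locus_21381), the light-driven step of chlorophyll synthesis, had 63 RPKM in receptive gall, 9.73 in pollinated gall, 38.6 in receptive seed and 31.1 in pollinated seed flowers, a fall of 6.47-fold in gall flowers (6 to 6.99). Pollinated gall flowers stood below the other 3 libraries. The light-harvesting antenna protein LHCB1 (Locus_264) had 290.1 in receptive gall, 119 in pollinated gall, 243 in receptive seed and 259 in pollinated seed flowers, a fall of 2.44-fold (2.37 to 2.5), again with pollinated gall flowers lowest. Locus_35934, a photosystem I subunit, fell 4.62-fold from 25 RPKM, and the photosystem II 10 kDa polypeptide Locus_127 2.18-fold from 131. Locus_21381 and Locus_35934 passed the RPKM minimum in receptive gall flowers alone, so they could only be called lower. The share of 60% includes such transcripts.

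In seed flowers the same 20 transcripts had a median log2 ratio of 0.08, with 3 higher and none lower. A pair of antenna transcripts moved at least 2-fold in opposite directions. Chlorophyll a-b binding protein Locus_2249 had 39.2 in receptive gall, 12.2 in pollinated gall, 4.53 in receptive seed and 9.22 in pollinated seed flowers, and light-harvesting complex I protein 3, Locus_16428 (chosen after its values were seen), had 31 in receptive gall, 13.2 in pollinated gall, 9.88 in receptive seed and 26.8 in pollinated seed flowers. Locus_2249 and Locus_16428 passed the RPKM minimum in receptive gall flowers alone, so in gall flowers they could only be called lower. The member that moved least, the rubisco-binding chaperonin subunit Locus_4249, which folds rubisco, had 102 RPKM in receptive gall and 101 in pollinated gall flowers. Whether the stage difference of the group differed between flower positions could not be tested with 1 library each.

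**Figure D3:**
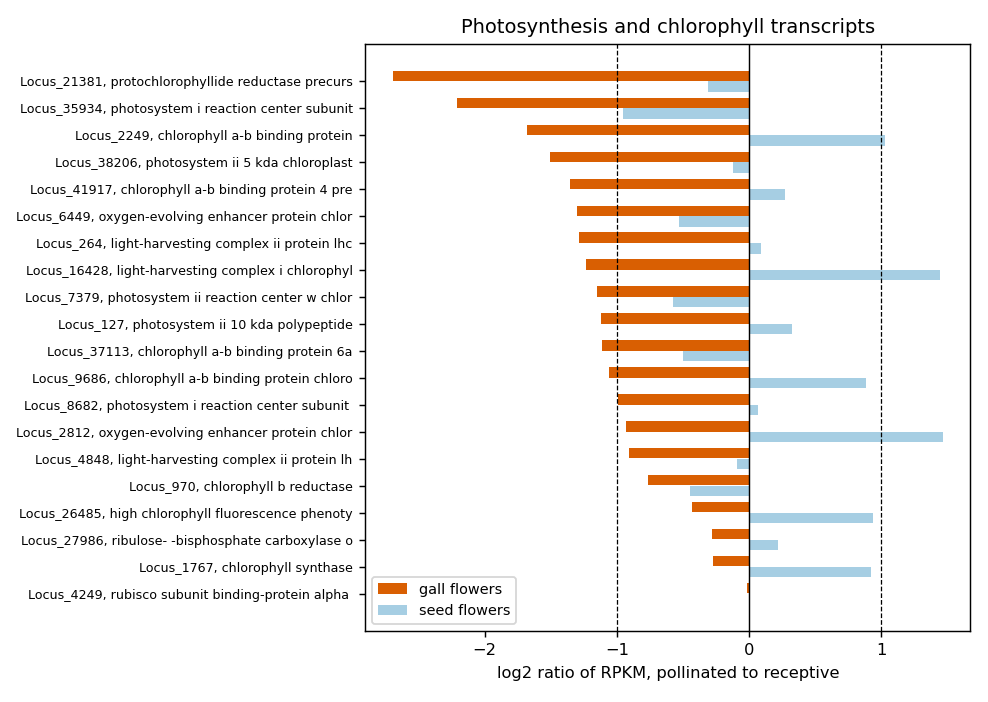
Log2 ratio of RPKM, pollinated to receptive (x axis), of the 20 photosynthesis and chlorophyll transcripts (y axis), with orange bars for gall flowers, blue bars for seed flowers and dashed lines at a 2-fold difference. All 20 gall bars point left, 12 of them past the dashed line, whereas no seed bar passes the left line and 3 pass the right one.

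Several terpene and lipid genes that were abundant in receptive gall flowers were lower after foundress entry. Receptive figs draw their wasps by scent, in which terpenes are prominent. All 4 germacrene D synthase transcripts, whose enzyme makes a volatile sesquiterpene, were lower, by 2.03-fold (Locus_8547) to 4.86-fold (Locus_20881). Locus_20881 had 457 RPKM in receptive gall, 93.9 in pollinated gall, 6.23 in receptive seed and 93.3 in pollinated seed flowers. Receptive gall flowers had the highest and receptive seed flowers the lowest level, the pollinated libraries were nearly level. Locus_16154 had 512 in receptive gall, 147 in pollinated gall, 90.6 in receptive seed and 178 in pollinated seed flowers. A myrcene synthase (Locus_5434), whose product is a monoterpene, fell 4.98-fold, and another (Locus_4474) rose 11.3-fold from 2.22 RPKM. Over the 24 terpenoid and carotenoid transcripts, 5 were lower and 1 higher, and the median was -0.12.

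Long chain acyl-CoA synthetases, which activate fatty acids for wax, cutin and membrane lipids, had 5 of 12 lower and none higher, and a median of -0.84. The share lower was 41.7%, against 5.76% of all members, in a list drawn up after its values were seen. The 5 were all described as type 1, which serves the cuticle in Arabidopsis, and with at most 1121 bp they may be pieces of fewer genes. Locus_9392 had 103 RPKM in receptive gall, 28.3 in pollinated gall, 1.06 in receptive seed and 22.8 in pollinated seed flowers, and Locus_28003, the most abundant, had 355 in receptive gall, 138 in pollinated gall, 88.1 in receptive seed and 137 in pollinated seed flowers. In seed flowers the median of the 12 was 0.53, with 5 higher. Cuticle, wax and lipid transfer genes had 5 of 37 lower, 3 higher and a median of -0.54. CER1 (Locus_4091), which makes the alkanes of wax, had 123 in receptive gall, 35.9 in pollinated gall, 5.17 in receptive seed and 14.9 in pollinated seed flowers, and the half-transporter ABCG32 (Locus_648), needed for the cuticle in Arabidopsis, had 143 in receptive gall, 46.3 in pollinated gall, 5.61 in receptive seed and 33.7 in pollinated seed flowers. Apart from Locus_28003, these transcripts were at least 2-fold lower in pollinated gall and at least 2-fold higher in pollinated seed flowers.

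Phenylpropanoid entry, chalcone synthase and late flavonoid transcripts were more often below than above their receptive level, though few by 2-fold. Chalcone isomerase transcripts were not. Entry enzymes of the phenylpropanoid pathway had 3 of 25 lower, none higher, 21 ratios below 1 and a median of -0.44. Chalcone synthase, the first enzyme specific to flavonoids, had 2 of 34 higher and 3 lower, with 13 ratios above 1, 21 below and a median of -0.19. Of the 34, 26 were shorter than 200 bp, and the 8 longer ones had a median of -0.56. The most abundant of the longer ones by RPKM, Locus_42519 (234 bp), had 4759.7 RPKM in receptive gall, 1807 in pollinated gall, 84.5 in receptive seed and 459 in pollinated seed flowers, a fall of 2.63-fold in gall flowers beside a rise of 5.44-fold in seed flowers. Longer assemblies moved less. The ratio of Locus_1491 (1817 bp) was 0.911 in gall flowers (1233 to 1124 RPKM) and 0.751 in seed flowers. For Locus_604 (1188 bp) it was 0.661 in gall flowers (1358 to 898 RPKM) and 1.60 in seed flowers. Of 17 chalcone isomerase transcripts none differed 2-fold, 9 had ratios above 1 and 8 below, and the median was 0.03. Late flavonoid and anthocyanin enzymes had 5 of 32 lower and 2 higher, 25 ratios below 1 and a median of -0.45. The largest fall was in isoflavone 2'-hydroxylase (Locus_21054, 63.9 to 5.25 RPKM), and the largest rise in an anthocyanin 5-aromatic acyltransferase (Locus_20492, 16.5 to 51.2).

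Of 22 sugar transporters 4 were higher (18.2%, against 6.02% of all members) and none lower (against 5.76%). Locus_20921, a bidirectional N3-type (SWEET) carrier that lets sucrose or hexoses leave cells, had 9.74 RPKM in receptive gall, 182 in pollinated gall, 1.8 in receptive seed and 77.2 in pollinated seed flowers, a rise of 18.7-fold in gall flowers (17.4 to 20.3). It passed the RPKM minimum in pollinated gall flowers alone, so it could only be called higher. Locus_69, an ERD6-like carrier, rose from 40.5 to 192 RPKM, and Locus_4978, of the same kind, from 36.6 to 140.0. Enzymes of sucrose and sugar nucleotides had 6 of 51 higher and 5 lower. Acid beta-fructofuranosidase (Locus_2520), the vacuolar invertase that splits sucrose, rose 3.53-fold from 14.9 to 52.8 RPKM, and sucrose synthase (Locus_5249), which splits sucrose in the cytosol, fell 2.17-fold from 295 to 136. The vacuolar membrane water channel Locus_9760 had 6.92 in receptive gall, 100.3 in pollinated gall, 8.32 in receptive seed and 50.4 in pollinated seed flowers, and was the only one of 23 aquaporin transcripts that was higher. A neutral amino acid transporter (Locus_43329) fell 6.74-fold and an ammonium transporter (Locus_13225) rose 3.84-fold.

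Ribosomal protein and histone transcripts lay mostly slightly above their receptive level, and translation factors did not. Of 145 cytosolic ribosomal protein transcripts 126 had ratios above 1, 5 were at least 2-fold higher and none was lower, with a median log2 ratio of 0.34 in gall and -0.12 in seed flowers. Of 42 translation factor transcripts 22 had ratios above 1 and 20 below, 1 was higher and none lower, and the median was 0.01. Of 19 histone transcripts 17 had ratios above 1, 1 of them at least 2-fold, with a median of 0.58 in gall and -0.65 in seed flowers. Histone H2B Locus_682 had 264 RPKM in receptive gall, 467 in pollinated gall, 993 in receptive seed and 464 in pollinated seed flowers, and histone H1 Locus_6096 had 38.2 in receptive gall, 80.6 in pollinated gall, 152 in receptive seed and 79.3 in pollinated seed flowers. In each the gall level rose while the seed level, which was higher at the start, fell. The ratio also moved with transcript length, from a median of -0.09 for 847 transcripts under 200 bp to 0.22 at 601 of intermediate length and -0.05 for the 3226 longest. In seed flowers the trend was steeper, with medians of -0.47 for the shortest and 0.29 for the longest class. With the trend removed the median for ribosomal proteins was 0.27 in gall and -0.0086 in seed flowers, and for histones 0.48 in gall and -0.47 in seed flowers. Cyclins, kinesins and mitotic genes, the machinery of cell division itself, had 1 of 33 higher and 1 lower and a median of -0.10. Of 4 DNA replication transcripts none differed 2-fold.

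**Figure D4:**
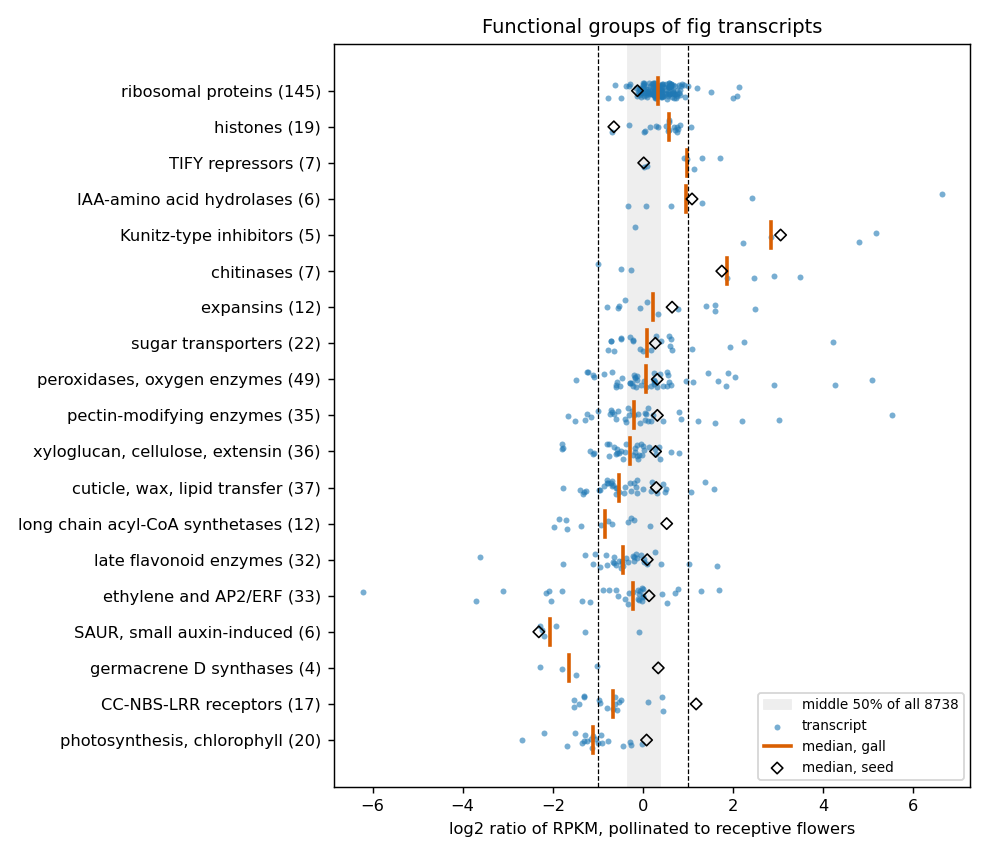
Log2 ratio of RPKM, pollinated to receptive gall flowers (x axis), of each transcript (dots) in 19 functional groups (y axis, number of transcripts in brackets). Thick bars are gall medians, diamonds are medians of the same transcripts in seed flowers, the grey band holds the middle 50% of all 8738 transcripts (-0.33 to 0.37) and dashed lines mark a 2-fold difference. Medians right of the band include those of the Kunitz-type inhibitor list (2.85) and TIFY repressors (0.98). Medians left of it include those of SAUR proteins (-2.06), germacrene D synthases (-1.64) and photosynthesis genes (-1.12).

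Among other regulators, bHLH factors had 4 of 24 higher (16.7%, against 6.02% of all members) and none lower. They were led by bHLH123-like Locus_7521 (4.61 to 24.2 RPKM) and bHLH49 Locus_3621 (17.2 to 61.5). Both passed the RPKM minimum in pollinated gall flowers alone, so they could only be called higher. NAC factors had 3 of 16 higher and 2 lower. MADS-box and floral identity genes had 1 of 17 higher (AGL15, Locus_34189, 25.3 to 59.9) and 2 lower (APETALA1, a sepal and petal identity gene, Locus_17736, 394 to 184, and a YABBY factor, Locus_5280, 41.5 to 16.3). Of 101 zinc finger, homeobox and bZIP factors 3 were higher and 4 lower, and of 12 WRKY factors 1 was lower. Calcium signalling genes had 6 of 78 higher and 5 lower. The calcium sensor CML27 (Locus_5544) fell 5.06-fold in gall and 4.78-fold in seed flowers. Of 79 receptor kinases 3 were higher and 5 lower, among which FERONIA (Locus_146), a receptor of wall state and of pollen tube reception in Arabidopsis, fell 2.36-fold from 299 to 127 RPKM.

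Proteases, chaperones and respiration gave no common direction. Secreted and vacuolar proteases had 5 of 68 higher and 2 lower, with the cysteine proteinase Locus_1320 at 20.2 RPKM in receptive gall, 233 in pollinated gall, 52.3 in receptive seed and 363 in pollinated seed flowers. Heat shock proteins and chaperones had 6 of 80 in each direction. The HSP70 Locus_8031 rose from 105 to 410.4 RPKM, and the fragment Locus_11848 (471 bp) had 729.6 in receptive gall, 346 in pollinated gall, 114 in receptive seed and 711 in pollinated seed flowers. Ubiquitin and proteasome genes had 5 of 194 in each direction, glycolysis enzymes 3 of 53 higher and 2 lower, and mitochondrial respiration genes 4 of 55 higher and 2 lower. Another list held transcripts described as senescence-associated protein or cell wall-associated hydrolase, names that database entries derived from ribosomal RNA often carry. It also held Locus_46991, described as cytochrome P450 like TBP. In this list 8 of 33 transcripts were lower and none higher, with a median of -0.73 in gall and -0.66 in seed flowers. Of these 22 were shorter than 200 bp, and their part in the other results was not tested. Where several transcripts share a description they may be pieces or near copies of one gene, between which reads can be split.

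The seed libraries give the stage difference in flowers near the wall of the fig, which foundresses seldom choose for their eggs. The seed and gall ratios share no library, but the read minimum in receptive seed flowers helped to choose the transcripts. Of the same 8738 transcripts, 13.5% were at least 2-fold higher and 8.16% at least 2-fold lower in pollinated than in receptive seed flowers, and the median log2 ratio was 0.07. Of the 526 that were higher in gall flowers, 171 were also higher in seed flowers. These are 32.5% of the gall list and 14.5% of the 1181 in the seed list. Of the 503 that were lower in gall flowers, 174 were also lower in seed flowers, or 34.6% of the gall list and 24.4% of the 713 in the seed list. Of the 38 rises of at least 10-fold in gall flowers, 33 were also at least 2-fold higher in seed flowers, and all 13 falls of this size were at least 2-fold lower there. The 5 rises without a 2-fold difference in seed flowers were the beta-tubulin Locus_5303 and 4 transcripts without a description. Of these, Locus_21181 had 0.842 RPKM in receptive gall, 67.2 in pollinated gall, 12.4 in receptive seed and 24 in pollinated seed flowers. The other 3, named after their values were seen, were Locus_15176 (71.5 to 806 RPKM in gall flowers), Locus_33065 (20.7 to 218) and Locus_38043 (2.21 to 24.4).

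Opposite differences of at least 2-fold were found in 119 transcripts. Of these 32 were higher in pollinated gall and lower in pollinated seed flowers, and 26 of the 32 had no description. The other 87 were lower in gall and higher in seed flowers. These 87 started far apart and ended close. Their median ratio of receptive gall to receptive seed level was 9.01, with 80 of the 87 at least 2-fold higher in gall, and their median ratio of pollinated gall to pollinated seed level was 0.87, with 53 of the 87 within 2-fold. Over all members the receptive ratio had a median of 1.01. The selection of opposite differences itself favours such a pattern. Described examples with levels given above were the chalcone synthase Locus_42519, the secretory peroxidase Locus_24264, the pectin methylesterase Locus_171, the heat shock fragment Locus_11848 and the germacrene D synthase Locus_20881.

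**Figure D5:**
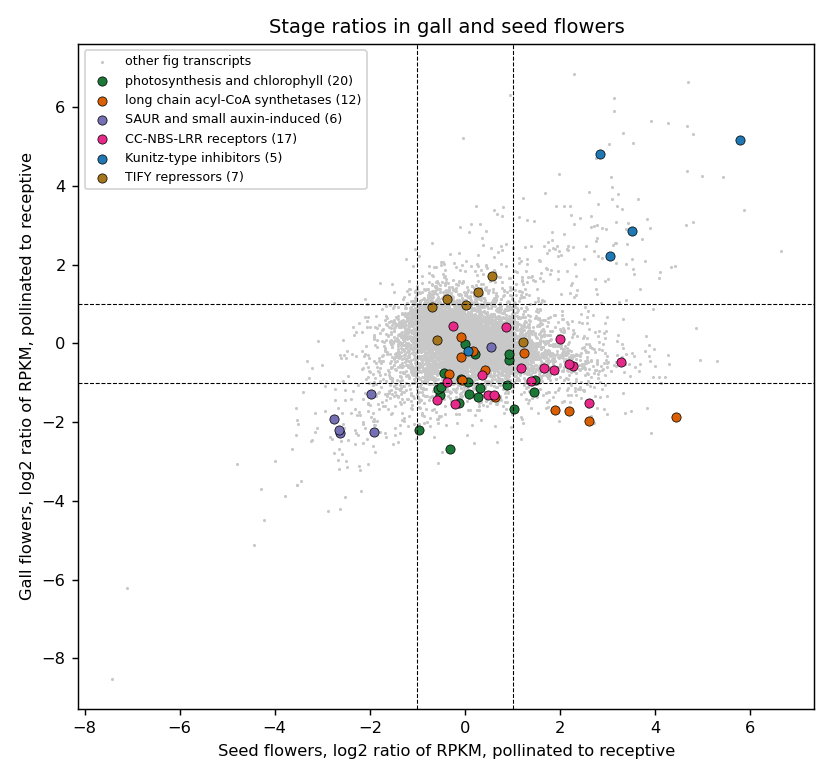
Log2 ratio of RPKM, pollinated to receptive, in seed flowers (x axis) and gall flowers (y axis) for 8738 fig transcripts, with 6 groups in colour and dashed lines at 2-fold differences. Kunitz-type inhibitors lie at the upper right and SAUR proteins at the lower left, apart from 1 transcript each, whereas CC-NBS-LRR receptors and acyl-CoA synthetases extend to the lower right.

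The read minimum left out 163 of 8901 transcripts that passed 20 RPKM in a gall library. Of these, 42 had no read in either receptive library and 69 passed 20 RPKM in receptive gall flowers. Just inside the RPKM minimum were Locus_1338 at 20.002 RPKM in pollinated gall and Locus_2287 at 20.002 in receptive gall flowers, and just outside it were Locus_10858 at 20 in receptive gall and Locus_5974 at 19.998 in pollinated gall flowers. At the read minimum, 11 transcripts had 10 reads in the lower receptive library and 8 had 9.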

How the data were processed

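Total RNA of 4 pooled flower samples was sequenced as paired 100 bp reads, 1 library per sample. The authors trimmed and filtered the reads (FastQC 0.10.0 and Trimmomatic 0.22 per the submitters' processing notes), assembled them into transcripts with Oases, mapped them back and counted them per transcript with CLC Genomics Workbench. The deposited table holds read counts (total and uniquely mapped, unnormalised) and the RPKM values that the authors computed from them. It was checked that RPKM rebuilt from counts, lengths and mapped totals differed from the deposited values by rounding only. Both mates of a fragment may have been counted, and transcript sequences were not analysed here.

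The ratio of deposited RPKM values was computed with Python 3.11.15, pandas 2.3.3, numpy 2.4.6 and SciPy 1.17.1, and plotted with matplotlib 3.10.9. The calls rest on no test, since each flower type had 1 library. Intervals are exact conditional binomial (Clopper-Pearson) intervals on the total counts. The procedure was run on simulated counts that held counting error only, so that run says nothing of variation between samples. Functional groups were formed by words in the descriptions. Members and lists were chosen with earlier results of these data known. Of the lists, 48 were drawn up first, the words of 13 of them were adjusted after their matches were seen, and 11 more were added after values were seen. A transcript can be in more than 1 list. Named transcripts were, per list, up to 3 of at least 200 bp with the highest mean RPKM and up to 3 with the largest 2-fold difference in each direction and at least 10 reads in both gall libraries, and over all members the 12 described transcripts with the largest difference in each direction and the 3 largest regardless of description, from which the text names a part. Others are marked where they are named. Marker lists for carpel, pollen, wasp and fungal transcripts were words too, and the fungal list matched 0 transcripts.

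Alternatives were TMM scaling (edgeR 4.0.16 in R 4.3.3), a member median of 0, scaling to fig reads, unique reads, other fold, RPKM, read and length minimums, 1 added to each RPKM, removal of a running median over 401 transcripts ordered by length, and Kal's test with adjusted p below 0.05, the kind of test the study used. Another 12 deposited columns (expression values, gene lengths and means, 3 per library) were not used.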

Additional observations from a re-analysis of the deposited data

Results flagged for a closer look

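The stage difference ran in opposite directions in gall and seed flowers for 119 transcripts past a 2-fold difference in each. With 1 library per flower type these differences between flower positions were not tested. Of these transcripts 32 were higher in pollinated gall and lower in pollinated seed flowers, and 87 were the reverse. Among the 87, the log2 ratio in gall flowers was -2.28 for the germacrene D synthase Locus_20881, -1.86 for the acyl-CoA synthetase Locus_9392, -1.77 for CER1 (Locus_4091), -1.63 for ABCG32 (Locus_648) and -1.66 for the pectin methylesterase Locus_171. It was -1.68 and -1.24 for the antenna proteins Locus_2249 and Locus_16428, -1.64 for PR10 (Locus_26033) and -1.52 for the CC-NBS-LRR receptor Locus_14949. For the secretory peroxidase Locus_24264 it was -1.50, for the chalcone synthase Locus_42519 -1.40, for the YABBY factor Locus_5280 -1.35 and for the heat shock fragment Locus_11848 -1.08.

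Reads outside the fig transcripts also differed between libraries. Transcripts that missed the read minimum in the receptive libraries, which no comparison above uses, took 3.21% of the pollinated gall reads, as against 0.739% of the receptive gall reads.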

How the results depend on the processing

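The counts depended on the thresholds. A 1.5-fold rule gave 1321 higher and 1244 lower transcripts, and a 4-fold rule 134 and 87. With an RPKM minimum of 5 the counts were 1000 and 890, with 50 they were 288 and 288, and without one 1466 and 1439, out of more or fewer transcripts tested. The median of the chitinases turned from 1.86 to -0.26 on the log2 scale with the minimum of 50, which left 5 transcripts. All other settings kept both counts within 1.5 times. They ranged from 366 higher and 342 lower, for transcripts of at least 500 bp, to 787 and 685 by Kal's test, which compares 2 libraries and not conditions. Requiring a mean above 20 RPKM, an alternative chosen after seeing the data, gave 424 and 400. No scaling moved the median of all members by more than 0.04. Of 223 called transcripts in the set eligible to be named, 214 to 222 stayed past 2-fold under each of 6 other scalings or corrections, and none reversed. No paired analysis was possible because each flower type had 1 library and the calls come from no test, and no replicate could be left out. Replicate error is unknown.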
